A study of Arabidopsis thaliana with 12 samples.

Results

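Arabidopsis thaliana seedlings that received bleomycin (BLM) together with the immune inducer INA were compared with seedlings that received BLM alone. This asks what INA changes in plants that also receive a DNA-damaging agent. The comparison rests on 6 of the 12 arrays of the series, the 3 BLM+INA arrays and the 3 BLM arrays, and takes in all 22746 probe sets other than the 64 array controls. The other arrays of the series enter only the estimate of the spread. All 4 groups are wild-type seedlings from MS plates. BLM+INA seedlings were given 4 µg/ml BLM and 10 µM INA, BLM seedlings 4 µg/ml BLM, INA seedlings 10 µM INA, and CK seedlings neither agent. Each group has 3 biological replicates with 1 array each. The age of the seedlings and the length of the treatment are not given in the sources used here. RNA came from whole seedlings, so a change in the share of a tissue and a change of RNA within its cells cannot be told apart.

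Bleomycin is an antibiotic that breaks DNA strands. Plant cells answer such breaks with kinase signalling, repair and a halt of the cell cycle. INA (dichloroisonicotinic acid) is a synthetic mimic of salicylic acid, the hormone that switches on defence against pathogens that feed on living tissue, through the coactivator NPR1 and WRKY and TGA transcription factors. Strong induction of defence proteins is known to draw on the folding and export machinery of the endoplasmic reticulum, and the salicylic acid pathway is known to work against parts of the abscisic acid response to drought and cold.

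Every value is given on the log2 scale relative to the middle of the 12 arrays for that probe set, so 0 marks that middle and no gene's level can be set against another's. For the same reason the presence of shoot or root RNA could not be checked from marker levels. A probe set is called here when limma gives a two-sided p under 0.05 after Benjamini-Hochberg adjustment over the 22746 probe sets. Changes are printed on the log2 scale ± SE, from 3 arrays in each group. The array medians lay between -0.0208 and 0.0255. The 3′ minus 5′ signal of the actin control, a sign of RNA quality and of the yield of labelling, was 0.06, 0.03 and 0.14 on the BLM+INA arrays, against -0.48, -0.02 and -0.13 on the BLM arrays, so the groups do not overlap. The same measure averaged -0.08 ± 0.32 in BLM+INA and -0.04 ± 0.06 in BLM for GAPDH, and 0.04 ± 0.01 in BLM+INA and 0.05 ± 0.11 in BLM for ubiquitin (SD, n = 3). The bacterial dap spike-in read differently by replicate number: its 3′ minus 5′ signal lay between -0.66 and -0.20 on the 4 replicate 1 arrays and between 0.85 and 1.10 on the 4 replicate 3 arrays, in every group. The part of the actin and spike-in differences in the results below was not tested.

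Adding INA to BLM raised 783 probe sets and lowered 538, together 1321, which is 5.81% of those tested (3.44% higher and 2.37% lower). The rises were larger than the falls: 248 probe sets (1.09%) changed at least 2-fold, 219 of them upward (0.963%) and 29 downward (0.127%). The count was 875 without BLM replicate 1. The median change over all 22746 probe sets was -0.02. Names are limited to probe sets paired with exactly 1 gene, which hold 394 of the 783 rises and 286 of the 538 falls. Another 365 rises and 244 falls lay outside the gene table used for naming, so the genes named below are not a full list. The arrays of the groups did not overlap for 20.7% of all probe sets and for 1312 of the 1321 called (5.77% of all).

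The 15 largest named rises were picked among called genes whose BLM+INA and BLM arrays do not overlap. They were of several kinds, among them lectin, receptor kinase and immune receptor genes. The legume-type lectin gene AT5G03350 stood at 2.23, 2.19 and 2.29 in BLM+INA seedlings, against -1.92, -1.62 and -1.23 in BLM seedlings, a 14.2-fold rise. The leucine-rich repeat receptor kinase gene AT1G35710 stood at 2.80, 2.67 and 2.69 in BLM+INA seedlings, against -1.43, -0.63 and -0.89 in BLM seedlings, a 13.0-fold rise. AT5G55450, of the lipid-transfer protein family, had 3.07, 2.72 and 2.82 in BLM+INA seedlings, against -1.43, -0.64 and -0.61 in BLM seedlings (13.6-fold). In each of these 3 genes the lowest BLM+INA array lay more than 3 log2 units above the highest BLM array. The TIR-NBS immune receptor gene AT3G04210, whose product acts inside the cell, rose 8.06-fold and AT2G41090, a calmodulin-like calcium sensor gene, rose 9.72-fold. The neighbouring genes AT5G52750 and AT5G52760, which encode proteins with a heavy-metal-binding domain, rose 8.80-fold and 9.23-fold, and whether their probes also bind each other's RNA was not tested.

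The transcription factor gene WRKY53, a regulator of leaf senescence and defence, had the widest spread of its BLM+INA arrays among these rises. It stood at 2.59, 2.39 and 3.46 in BLM+INA seedlings, against 0.06, 0.18 and 0.15 in BLM seedlings, a change of 2.68 ± 0.18 (limma adjusted p = 2.92e-08). The third BLM+INA array was the highest, and even the lowest lay well above all 3 BLM arrays. The ankyrin repeat gene AT1G10340 was tighter, with 2.17, 2.02 and 1.99 in BLM+INA seedlings against -0.26, -0.12 and -0.13 in BLM seedlings. AT1G19960 and the methyltransferase gene AT2G32160 had changes of 3.27 ± 0.13 and 2.98 ± 0.12, with 9.63-fold and 7.88-fold rises. AT5G18470, of the curculin-type lectin family, and the lipase family gene AT5G24210 rose 5.60-fold and 4.96-fold, and AT3G48650 rose 4.72-fold. AT3G60420 rose 4.45-fold on one probe set, while its other probe set stood at -0.10 ± 0.10 and was not called.

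**Figure D1:**
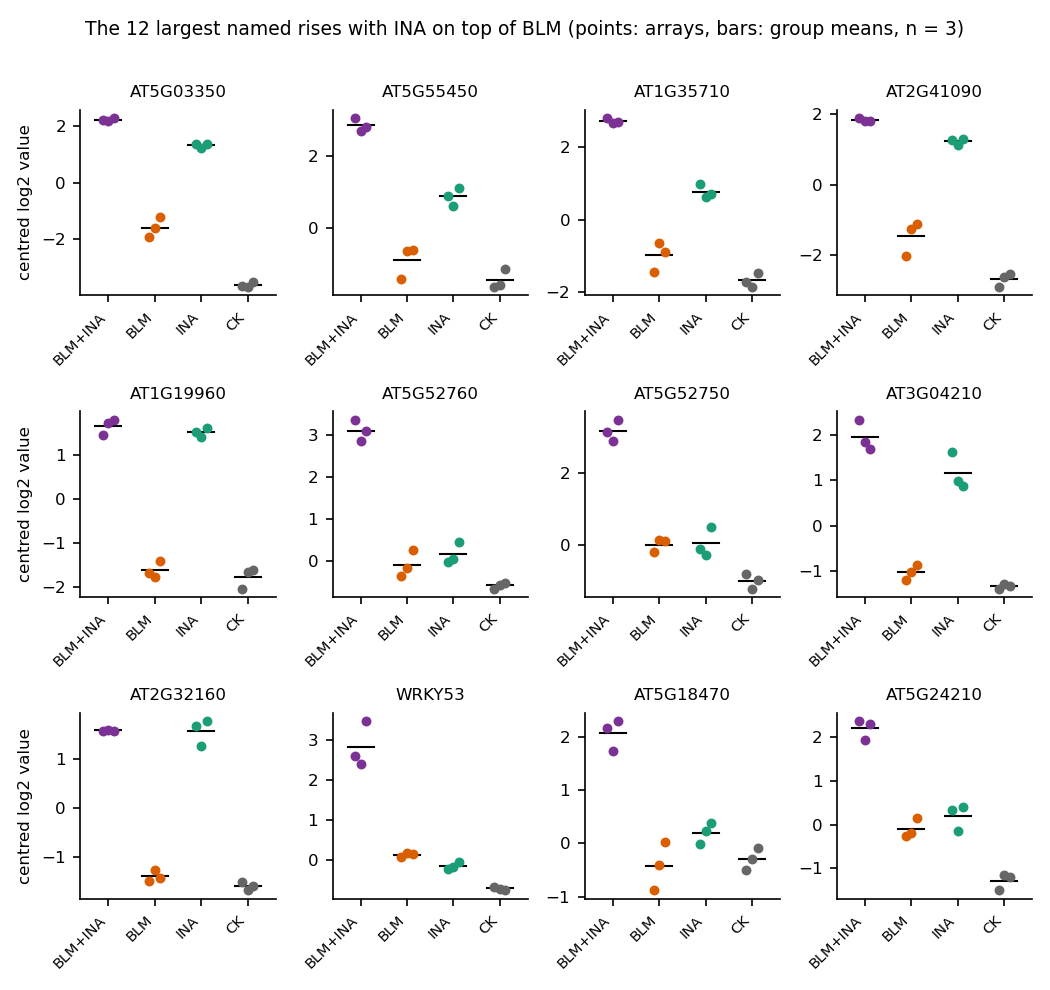
Centred log2 values (vertical axes, each with its own scale) of the 12 largest named rises on all arrays, with BLM+INA, BLM, INA and CK from left to right, 1 point per array and a bar at the group mean (n = 3). The 3 BLM+INA points lie above the 3 BLM points in every panel because the genes were picked among those whose arrays do not overlap. The INA points sit near the BLM+INA points for AT1G19960 and AT2G32160 and near the BLM points for AT5G52760, AT5G52750, WRKY53, AT5G18470 and AT5G24210.

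A list gene is counted as measured only if a probe set is paired with that 1 gene. Other list members may be on the array without a name, so no list stands for its whole pathway. The salicylic acid list had 8 measured genes of 53, of which 5 rose and 1 fell, with a median of 0.76. Over all probe sets, 3.44% were higher and 2.37% lower, with a median of -0.02. After WRKY53, the largest rise was that of AT3G22240, a small cysteine-rich protein gene, at 0.96, 0.94 and 1.04 in BLM+INA seedlings against -1.04, -1.17 and -1.02 in BLM seedlings. AT5G52810 (SARD4), which makes the systemic resistance signal pipecolic acid, rose by 1.09 ± 0.16, and the glutaredoxin gene GRX480, whose product binds TGA factors, rose by 0.89 ± 0.13. UGT76B1, which puts glucose on salicylic acid and on pipecolic acid's active form, rose by 0.63 ± 0.14, a call lost without BLM replicate 1 (0.46) or BLM+INA replicate 1 (0.57). The immune regulator gene SAG101 stood at 1.29, 0.50 and 1.08 in BLM+INA seedlings, against 0.18, 0.68 and 0.31 in BLM seedlings. These arrays overlap, and SAG101 was not called (adjusted p = 0.0698 by limma), but it was called without BLM replicate 2 (0.71) or BLM+INA replicate 2 (0.79). The methyltransferase gene BSMT1 stood at 0.01 ± 0.09. The member that fell, AT5G48490, is a lipid-transfer protein gene related to the long-distance signal protein DIR1, and stood at -1.36, -0.58 and -0.25 in BLM+INA seedlings against 0.45, 0.84 and 0.90 in BLM seedlings.

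In the pattern-triggered immunity list, 3 of 8 measured genes rose (3.44% of all probe sets), 0 fell and the median was 0.17. The U-box ubiquitin ligase gene PUB24, a negative regulator of this branch of immunity, stood at 1.33, 0.78 and 1.07 in BLM+INA seedlings against -0.22, -0.20 and -0.06 in BLM seedlings. Its relatives PUB22 (0.13 ± 0.11) and PUB23 (-0.11 ± 0.15) were not called. The receptor kinase gene AT4G08850 (MIK2) rose by 0.89 ± 0.10. EFR, the receptor for bacterial elongation factor Tu, rose by 0.55 ± 0.13, a call lost without BLM replicate 1 (0.51), BLM replicate 2 (0.43) or BLM+INA replicate 1 (0.42). The cytoplasmic kinase gene BIK1 (0.14 ± 0.13) and WRKY22 (0.21 ± 0.15) were not called.

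The endoplasmic reticulum list had 13 measured genes on 15 probe sets, of which 4 rose (3.44% of all probe sets) and 0 fell (2.37%), with a median of 0.20 and all 15 values above 0. AT3G60540, a subunit gene of the SEC61 channel that takes new proteins into the endoplasmic reticulum, stood at 0.58, 0.79 and 1.09 in BLM+INA seedlings, against -0.09, -0.26 and -0.05 in BLM seedlings. BZIP60, the transcription factor of the unfolded protein response, had 0.79, 0.65 and 0.79 in BLM+INA seedlings against 0.00, 0.01 and 0.26 in BLM seedlings. The arrays of these genes do not overlap. The co-chaperone gene ATERDJ3B rose by 0.48 ± 0.10 and the calreticulin gene CRT1b by 0.37 ± 0.10, the call of CRT1b being lost in 5 of 12 fits without 1 array. The related sensor genes BZIP17 (0.19 ± 0.11) and BZIP28 (0.05 ± 0.11) and both probe sets of the degradation gene DER1 (0.13 and 0.17) were not called.

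INA alone, set against CK, called 264 probe sets (1.16%), 207 higher (0.910%) and 57 lower (0.251%). The INA and CK arrays do not enter the BLM+INA minus BLM difference. Both comparisons share 1 estimate of the spread per probe set, so their calls are not independent. Of the 783 rises on top of BLM, 173 were also rises with INA alone, which is 22.1% of the 783 and 83.6% of the 207. The 173 shared rises had a median of 1.37 on top of BLM and 0.87 with INA alone, and 142 of them were larger on top of BLM. Of the 538 falls, 31 were also falls with INA alone, 5.76% of the 538 and 54.4% of the 57, and 2 were rises with INA alone. INA alone had the same sign for 724 of the 783 rises (92.5%) and for 470 of the 538 falls (87.4%), with smaller medians. The rises had medians of 0.68 on top of BLM and 0.30 with INA alone, and the falls had medians of -0.49 on top of BLM and -0.17 with INA alone. The probe sets were chosen for passing on top of BLM, which by itself favours larger values there.

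**Figure D2:**
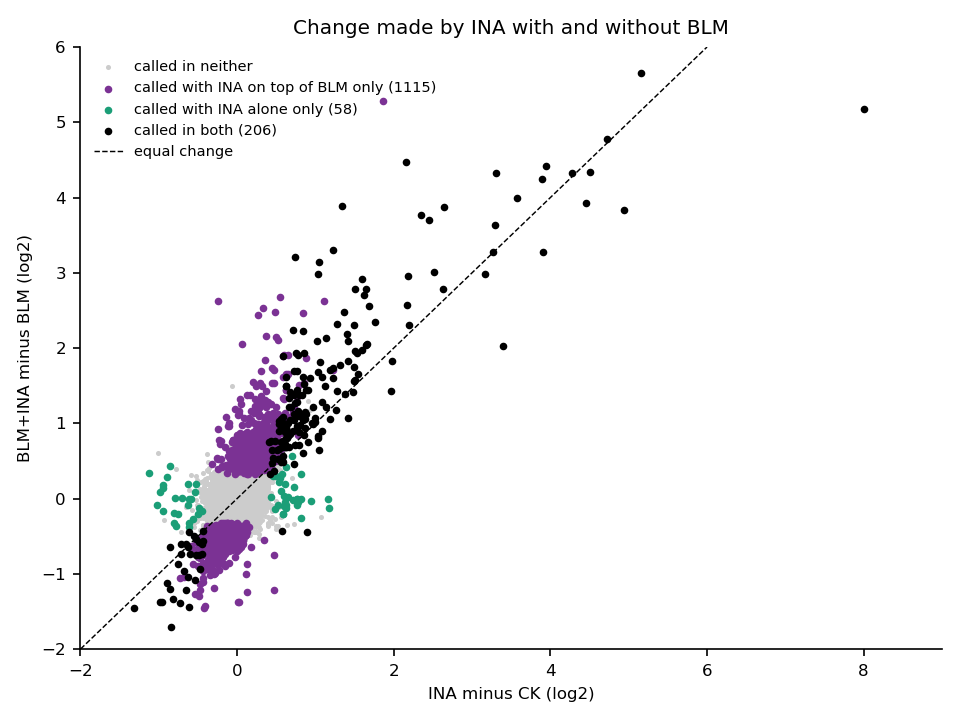
Change made by INA in the presence of BLM (BLM+INA minus BLM, vertical axis, log2) against the change made by INA alone (INA minus CK, horizontal axis, log2), 1 point per probe set, coloured by which of the changes was called, with a dashed line of equal change. Of the 173 rises shared by both, 142 lie above the line, and the probe sets called on top of BLM only form a steep band near 0 on the horizontal axis.

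The difference between the INA response with BLM and the INA response without it was tested as an interaction, which called 87 probe sets (0.382%), 69 with a higher response in the presence of BLM (0.303%) and 18 with a lower one (0.0791%). AT3G09020, of a glycosyltransferase family, moved by 2.06 ± 0.13 on top of BLM and by 0.06 ± 0.13 with INA alone, and stood at 2.14, 1.74 and 2.19 in BLM+INA seedlings against 0.05, -0.21 and 0.06 in BLM seedlings. The metalloproteinase gene AT1G24140 moved by 1.84 ± 0.10 on top of BLM and 0.35 with INA alone, and the glutamate receptor gene GLR1.4 by 1.38 ± 0.13 and 0.12. WRKY53 moved by 2.68 on top of BLM and 0.55 with INA alone, and AT5G52760 by 3.21 and 0.74. The opposite held for AT5G03350 and AT2G25510, whose INA responses were smaller in the presence of BLM: 3.83 against 4.94 for AT5G03350, and 2.03 against 3.40 for AT2G25510. AT1G19960 (3.27 in both) and AT2G32160 (2.98 with BLM and 3.16 without) had interactions of 0.00 and -0.18 and were not called.

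The remaining results take the genes by their response to BLM alone. The groups are separate seedlings, so wording such as raised by BLM and then turned down by INA describes differences between groups. It does not describe a sequence within the same plants. Relative to CK, BLM changed 3790 probe sets (16.7%), of which 1905 were raised (8.38%) and 1885 lowered (8.29%). The BLM arrays enter both BLM minus CK and BLM+INA minus BLM, with opposite signs, so an array that reads high by error makes a gene look both raised by BLM and turned down by INA. The 4 class counts below are therefore descriptions. Of the 1905 raised probe sets, 248 (13.0%) were higher still with INA added and 159 (8.35%) were lower. Of the 1885 lowered probe sets, 79 (4.19%) were higher with INA added and 50 (2.65%) were lower still. Over all probe sets 3.44% were higher and 2.37% lower, so the shares among lowered probe sets lie near those of the whole array. The smaller classes lean on single arrays: the 79 became 40 without BLM replicate 1, 52 without BLM+INA replicate 1 and 49 without BLM+INA replicate 3, and the 50 became 26, 24 and 27 without BLM replicates 1, 2 and 3 and 32 without BLM+INA replicate 1. The 248 became 161 without BLM replicate 2. Another 456 rises and 329 falls with INA were of probe sets not called with BLM.

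**Figure D3:**
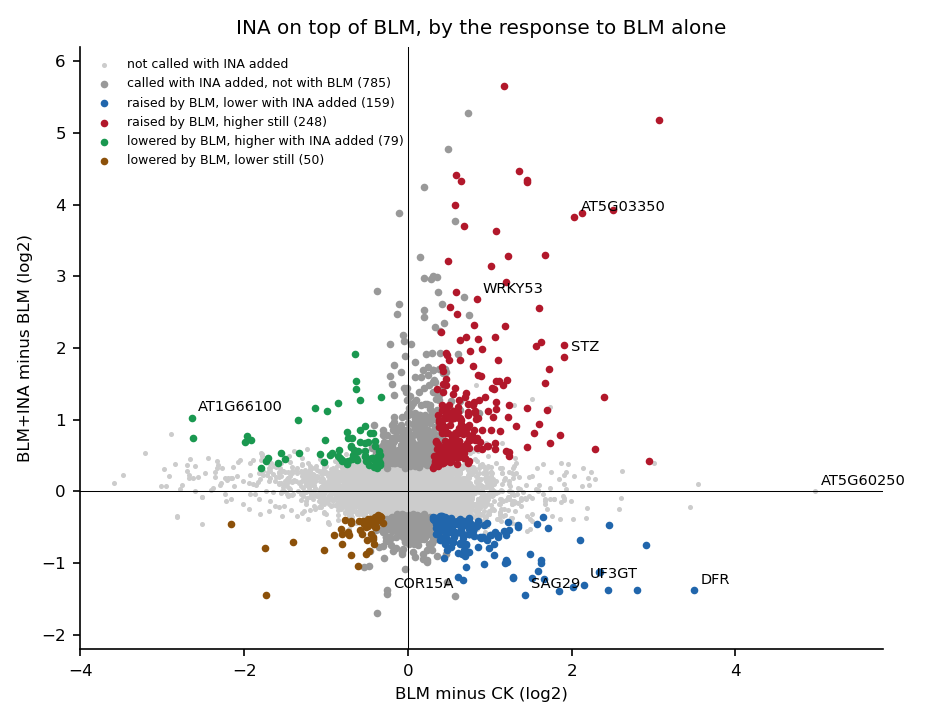
Change with INA on top of BLM (BLM+INA minus BLM, vertical axis, log2) against the change with BLM alone (BLM minus CK, horizontal axis, log2), 1 point per probe set, with the probe sets called in both in 4 colours by direction. The 159 probe sets raised by BLM and lower with INA added occupy the lower right, with DFR at 3.50 and -1.38. AT5G60250, the named gene raised most by BLM, lies on the horizontal line at 0.

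The 159 BLM-raised probe sets that INA turned down had medians of 0.66 for BLM minus CK and -0.56 for BLM+INA minus BLM, and 19 of them fell at least 2-fold (0.127% of all probe sets). With both agents they had a median of 0.08 relative to CK, where 36 were still called higher, 4 were called lower and 119 were not called (over all probe sets, 11.2% were called higher and 11.0% lower with both agents). INA alone, which shares its CK arrays with BLM minus CK, had a median of -0.17 for the 159. The interaction was called for 11 of the 159, all with a lower response in the presence of BLM (0.0791% of all probe sets). It contains the change that chose the 159, so the count is a description.

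SAG29 (SWEET15), a sugar exporter gene of senescing leaves, was turned down to about its value in CK. It stood at 0.06, 0.12 and -0.15 in BLM+INA seedlings, against 1.41, 1.43 and 1.51 in BLM seedlings, a change of -1.44 ± 0.12 (limma adjusted p = 2.05e-07). Relative to CK it stood at -0.01 with both agents and had been raised by 1.43 with BLM alone. AT3G28270 moved in the same way, with -0.06, 0.41 and -0.03 in BLM+INA seedlings against 1.36, 1.09 and 1.51 in BLM seedlings and a difference of 0.07 between BLM+INA and CK. AT5G57760 and the cysteine protease family gene AT2G27420 ended below CK, at -0.57 and -0.59, after BLM rises of 0.67 and 0.61. AT3G02480, of the late embryogenesis abundant protein family known from drying seeds, stood at 0.05, 0.61 and 0.32 in BLM+INA seedlings against 1.19, 1.61 and 1.53 in BLM seedlings. AT2G15020, the hydrolase family gene AT5G22460 and the pectin lyase-like gene AT3G15720 fell by 1.06, by 0.96 and by 0.96 on the log2 scale, after BLM rises of 0.71, 1.20 and 1.63. In each of these genes the BLM+INA arrays all lay below the BLM arrays.

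Of the 30 genes of the flavonoid and anthocyanin list, 6 were measured under a name. These 6 were called lower with INA on top of BLM (2.37% of all probe sets), with a median of -1.17. Of the 6, 5 had been raised by BLM (8.38% of all probe sets). Anthocyanins are the red and purple pigments that seedlings make under stress, by a chain of enzymes from phenylalanine. DFR, the dihydroflavonol reductase at the entry to the anthocyanin branch, stood at 1.02, 1.01 and 0.94 in BLM+INA seedlings, against 2.35, 2.34 and 2.42 in BLM seedlings, which is 2.61-fold lower. It stayed 2.12 above CK with both agents, against 3.50 above CK with BLM alone. The decorating enzymes act later and attach sugars and acyl groups. UF3GT stood at 0.19, 0.96 and 0.50 in BLM+INA seedlings, against 1.95, 1.70 and 1.92 in BLM seedlings (2.47-fold lower), and stayed 0.85 above CK. AT5MAT, the malonyltransferase, stood at 0.18, 0.58 and -0.01 in BLM+INA seedlings, against 1.47, 1.45 and 1.48 in BLM seedlings (2.32-fold lower). For both, the BLM arrays were close together and the BLM+INA arrays spread more widely below them. The 5-O-glucosyltransferase gene AT4G14090 had 0.70, 0.71 and 0.37 in BLM+INA seedlings against 1.80, 1.67 and 1.70 in BLM seedlings (2.19-fold lower), and remained 1.20 above CK.

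UGT78D2, a flavonoid 3-O-glucosyltransferase gene, fell by 0.70 on the log2 scale (SE 0.10) after a BLM rise of 0.55 and stood at -0.14 relative to CK. BAN, a reductase gene of the tannin branch, stood at -0.40, -0.07 and -0.22 in BLM+INA seedlings against 0.37, 0.07 and 0.21 in BLM seedlings. BAN had not been called with BLM (0.21), and its change of -0.45 ± 0.13 was no longer called in 6 of the 12 fits that leave out an array. CHIL, a chalcone isomerase-like gene that is not in the list, fell by 0.82 (SE 0.11), and its change with BLM alone (0.29) was not called. INA alone lowered DFR (-0.99) and AT5MAT (-0.65), while the other 4 list members were not called with INA alone, at -0.49 for UF3GT, -0.47 for AT4G14090, -0.11 for UGT78D2 and 0.06 for BAN. The interaction was called for none of the 6, which lies near the share over all probe sets (0.382%). Its values lay between -0.81 for UF3GT and -0.39 for DFR, with limma's adjusted p between 0.127 for UGT78D2 and 0.733 for DFR.

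**Figure D4:**
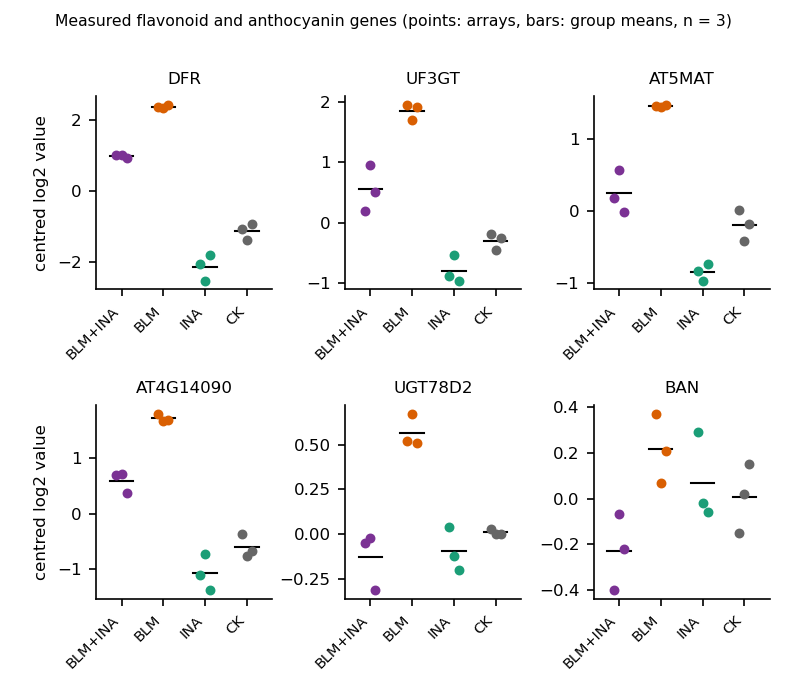
Centred log2 values (vertical axes, each with its own scale) of the 6 measured flavonoid and anthocyanin genes on all arrays, with BLM+INA, BLM, INA and CK from left to right, 1 point per array and a bar at the group mean (n = 3). The 3 BLM+INA points lie below the 3 BLM points in each panel, and for DFR, UF3GT and AT4G14090 they remain above the INA and CK points.

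In the abscisic acid, cold and dehydration list, 4 of 6 measured genes fell (2.37% of all probe sets) and 1 rose (3.44%), with a median of -0.61. SAG29, described above, is one of the 4. COR15A, whose product protects chloroplast membranes in the cold, stood at -1.60, -1.23 and -1.42 in BLM+INA seedlings, against -0.02, 0.02 and 0.04 in BLM seedlings, although BLM alone had not changed it enough to be called (-0.26). Its neighbour COR15B stood at -1.29, -1.09 and -0.89 in BLM+INA seedlings against -0.25, -0.36 and -0.20 in BLM seedlings, and had already been lowered by BLM (-1.02). The dehydrin gene COR47 fell by 0.40 (SE 0.11), a call lost in 8 of 12 fits without 1 array, and the dehydrin gene LTI30 stood at 0.06 ± 0.12. The member that rose was STZ (ZAT10), a zinc finger repressor gene induced by many stresses, with 2.14, 1.69 and 2.54 in BLM+INA seedlings against 0.45, -0.29 and 0.61 in BLM seedlings.

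The largest fall of any named gene was that of AT1G62510, of the lipid-transfer protein family, at -1.50, -1.49 and -1.53 in BLM+INA seedlings against 0.22, 0.02 and 0.36 in BLM seedlings, 3.26-fold lower. AT1G13650 fell 2.72-fold and AT2G40435 2.40-fold, and AT3G48460, of the GDSL lipase family, fell 2.11-fold with arrays at -0.89, -0.80 and -0.86 in BLM+INA seedlings against 0.26, 0.19 and 0.23 in BLM seedlings. AT1G13650 leads the 50 probe sets that BLM had lowered and INA lowered further, whose medians were -0.49 for BLM minus CK and -0.48 for BLM+INA minus BLM. Relative to CK it stood at -3.18 with both agents and at -1.73 with BLM alone. AT4G12980, the GDSL lipase family gene AT4G28780 and AT3G14760 fell further by 0.89, by 0.87 and by 0.83 on the log2 scale.

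The 248 probe sets raised by BLM and higher still with INA had medians of 0.62 for BLM minus CK, 0.86 for BLM+INA minus BLM and 1.57 for BLM+INA minus CK. Of the 248, 104 gained at least 2-fold from INA (0.963% of all probe sets). INA alone had a median of 0.49 for the 248, but it shares its CK arrays with BLM minus CK, which by itself favours a value above 0 here. They include AT5G03350, AT1G35710, AT2G41090, AT5G52760, AT5G52750, WRKY53, AT5G24210 and AT1G10340, which BLM alone had raised by between 0.40 and 2.03.

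Among BLM-lowered genes, 79 probe sets were higher with INA added, with medians of -0.64 for BLM minus CK, 0.51 for BLM+INA minus BLM and -0.03 for BLM+INA minus CK. Relative to CK, 49 of them were not called with both agents, 22 were still called lower and 8 were called higher. Over all probe sets, 11.0% were called lower and 11.2% higher with both agents. MSRB9, which repairs oxidised methionine, stood at 0.17, -0.02 and 0.19 in BLM+INA seedlings, against -1.33, -0.89 and -0.79 in BLM seedlings, and at 0.13 relative to CK. AT4G01700, of a chitinase family, had 0.61, 0.56 and 0.37 in BLM+INA seedlings against -1.17, -0.55 and -0.54 in BLM seedlings and ended 0.69 above CK. AT1G17430 (1.23 ± 0.14), the clock- and cold-regulated gene COR27 (0.91 ± 0.13), AT5G28630 (0.81 ± 0.13) and AT4G29520 (0.75 ± 0.12) rose to between 0.07 and 0.39 relative to CK. With both agents, the thionin family gene AT1G66100 and the glutaredoxin family gene AT5G18600 were higher than with BLM alone but still below CK. AT1G66100 rose by 1.03 ± 0.22 and stood at -1.60 with both agents and at -2.64 with BLM relative to CK, a call lost without BLM+INA replicate 1 (0.85).

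Of the 259 probe sets that BLM raised at least 2-fold (1.14% of all), 52 were higher with INA (20.1%, against 3.44% of all probe sets), 39 were lower (15.1%, against 2.37%) and 168 were not called. Of the 312 that BLM lowered at least 2-fold (1.37%), 17 were higher (5.45%), 5 were lower (1.6%) and 290 were not called. These shares too rest on the BLM arrays that both changes use. AT5G60250, a RING zinc finger gene that BLM raised by 4.97 on the log2 scale, stood at 2.27, 2.26 and 2.19 in BLM+INA seedlings, against 2.27, 2.37 and 2.09 in BLM seedlings. Of the 10 largest named BLM rises, INA added to AT3G45730 (1.32 ± 0.21) and AT4G22960 (0.59 ± 0.12, which turned to -0.29 after quantile normalization of the centred values). It turned down DFR, AT4G14090, AT3G12900 (-0.75 ± 0.13) and the jacalin-type lectin gene AT1G73040 (-0.47 ± 0.11). AT3G12900, an enzyme gene of iron-mobilising coumarin synthesis in roots, stood at 1.0, 0.72 and 0.71 in BLM+INA seedlings, against 1.56, 1.58 and 1.56 in BLM seedlings. Of the 10 largest named BLM falls, 0 were called with INA by limma and 4 had an unadjusted p under 0.05. Over all 22746 probe sets, 3849 had such a p. The values of the 10 lay between -0.35 for the root hair peroxidase gene AT4G26010 and 0.80 for AT4G22490, whose arrays do not overlap.

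The DNA damage, cell cycle and root lists had 0 members called by limma with INA added. With 5.81% of all probe sets called and few members measured, a count of 0 lies near the share over the whole array. Of 50 genes listed for DNA damage and repair, 6 were measured on 7 probe sets, with a median of -0.06 and a range of -0.23 to 0.07. Of these probe sets, 0 had an unadjusted p under 0.05, against 3849 of all 22746. The end-joining ligase gene ATLIG4 stood at 0.27, 0.14 and 0.24 in BLM+INA seedlings, against 0.05, 0.32 and 0.21 in BLM seedlings, and the damage tolerance helicase gene RAD5 stood at 0.20, -0.02 and -0.07 in BLM+INA seedlings, against 0.29, 0.29 and 0.02 in BLM seedlings. Both had been raised by BLM, and their arrays overlap between the groups. The rest of the list was not measured under a name, so it covers little of the response.

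All 6 measured G2 and mitosis genes had been lowered by BLM (8.29% of all probe sets), with a median of -0.92. With INA added they stood between -0.32 and 0.25 (median 0.07, 1 with an unadjusted p under 0.05). AUR1, an Aurora kinase gene of the mitotic spindle, stood at -0.66, -0.71 and -0.39 in BLM+INA seedlings, against -0.81, -0.66 and -0.44 in BLM seedlings. Its relatives AUR2 (0.15 ± 0.15) and AUR3 (-0.05 ± 0.16), the phragmoplast kinesin gene KINESIN-12B (0.09 ± 0.12) and 3xHMG-box1 (0.25 ± 0.13), whose product binds mitotic chromosomes, were not called. Both measured replication genes lay lower, PRL (MCM7), of the replicative helicase, at -0.35 ± 0.12 and the polymerase gene ICU2 at -0.28 ± 0.12. Neither was called, and both had an unadjusted p under 0.05 (3849 of all 22746 probe sets).

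Of 4 root tissue markers, 3 had been lowered by BLM (8.29% of all probe sets). With INA added, 0 were called and 1 had an unadjusted p under 0.05 (3849 of all 22746 probe sets). The root hair expansin genes EXPA7 and EXPA18 stood at 0.05 ± 0.12 and -0.25 ± 0.11, AT4G26010 at -0.35 ± 0.17 and the root glucosidase gene PYK10 at 0.04 ± 0.10. The 4 photosynthesis genes, taken as markers of green shoot tissue, stood between -0.22 and 0.00, with 0 called and 1 with an unadjusted p under 0.05. The xenobiotic detoxification list had 4 of 7 genes raised by BLM (8.38% of all probe sets) and 0 called with INA added (median 0.17, 3 with an unadjusted p under 0.05). AT2G21640 (UPOX), a mitochondrial stress gene, stood at 0.78, 0.85 and 0.96 in BLM+INA seedlings, against 0.47, 0.94 and 1.12 in BLM seedlings. In the jasmonate and ethylene list the defensin gene PDF1.2 (-0.11 ± 0.26), PDF1.2b (0.31 ± 0.26) and the thionin gene THI2.1 (0.04 ± 0.12) were not called. The single measured genes of the camalexin, senescence and heat shock lists were not called either: AT2G04400 at 0.15, WRKY6 at 0.31 and ATHSP22.0 at -0.05. In all, 76 of the 377 listed genes were measured under a name.

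**Figure D5:**
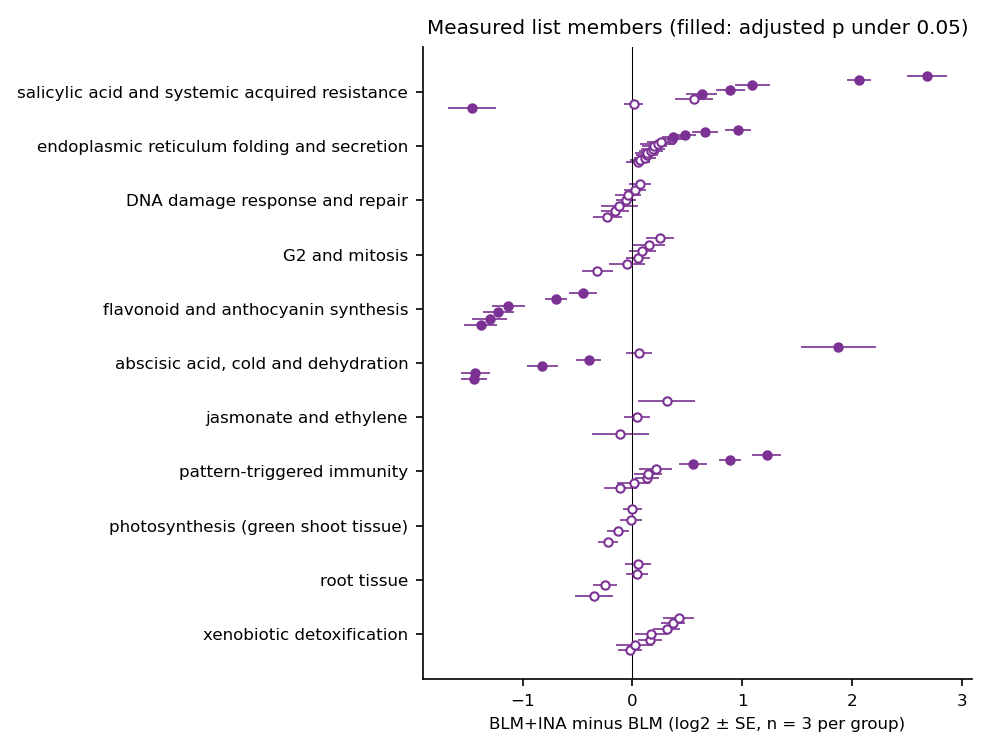
Change with INA on top of BLM (BLM+INA minus BLM, horizontal axis, log2 ± SE, n = 3 per group) for each measured probe set of the 11 lists with at least 3, 1 point per probe set, filled where called. The salicylic acid and endoplasmic reticulum lists have filled points to the right of 0, and the salicylic acid list also has 1 to the left. The flavonoid list has only filled points to the left, while the DNA damage, mitosis, jasmonate, photosynthesis, root and xenobiotic lists have no filled points.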

How the data were processed

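Total RNA of 12 seedling samples was amplified, labelled with biotin and hybridised to single-colour arrays whose probe sets carry Affymetrix names. The authors deposited log2 values made with RMA, per the submitters' processing notes. The file's values are also centred, since each probe set's median over the 12 arrays is 0 within 5e-07, and base 2 is that of RMA rather than written in the file. Arrays give no counts, and precision is limited by how many were run.

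Of 22810 rows, 64 controls were set aside. A platform gene table paired 13513 of the 22746 others with 1 gene and 503 with several, while 8730 had no entry. A RefSeq table supplied symbols and lacked 77 of the 13513. No genome build is named, so no coordinates are given.

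In limma 3.58.1 (R 4.3.3) each group had its own mean in a fit to all 12 arrays, with 8 residual and 8.82 prior degrees of freedom, two-sided tests and Benjamini-Hochberg adjustment over 22746 probe sets (threshold 0.05). The script was tested on simulated data. The interaction subtracts INA minus CK from BLM+INA minus BLM. Replicate numbers were not taken to pair the samples in the main fit. The deviations of same-numbered BLM+INA and BLM arrays correlated at 0.05, 0.08 and 0.23, and those of INA and CK arrays at 0.22, 0.06 and 0.40. Not every pair passed 0.1. Differently numbered arrays correlated at between -0.19 and 0.11 for BLM+INA and BLM, and at between -0.36 and 0.21 for INA and CK. An effect shared by replicate number may therefore remain in the main counts, and counts with the number as a block are given below. Named were the 15 largest rises and falls with arrays that do not overlap, 12, 8, 8 and 5 genes of the 4 classes of bleomycin response (raised then lower, lowered then higher, raised then higher still, lowered then lower still), the 8 largest interactions each way among called probe sets, and members of 15 gene lists. The 10 largest changes with BLM and called genes with a symbol were added after their values were seen. The groups compared, members and lists were chosen with earlier results of these data known. Python 3.11.15 and matplotlib 3.10.9 drew the figures.

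Alternatives were centring, quantile normalization, array weights, unmoderated and robust variances, a block for the replicate number, the compared groups only, 1-gene probe sets only, no dim probe sets (those whose stored digits place fewer than 10 of 12 arrays at a level of 4 or more), a threshold of 0.01, a 2-fold minimum, and each array left out. Promoter motifs and families matched by gene description were planned and not run, since the reference used held neither promoters nor descriptions.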

Additional observations from a re-analysis of the deposited data

Results flagged for a closer look

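The following genes were called both on top of BLM and in the test of the difference between the INA response with BLM and the INA response without BLM. Their interactions are log2 values with limma's adjusted p over 22746 probe sets, and some were named for the size of this value. The causes were not tested.

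The INA response was larger in the presence of BLM for AT5G52760 (2.46, adjusted p = 3.02e-05), WRKY53 (2.13, 0.000773), AT5G52750 (2.10, 0.000773), AT5G18470 (2.0, 0.00139) and AT3G09020 (2.0, 3.02e-05). AT3G60420 (1.66), AT3G48650 (1.53), AT1G24140 (1.49), AT5G55450 (1.41), AT1G10340 (1.39) and AT1G35710 (1.25) followed. MSRB9 (1.09), AT1G17430 (1.0) and AT4G29520 (0.81), all lowered by BLM alone, stood at 0.03, 0.23 and -0.06 with INA alone and were called with INA on top of BLM but not with INA alone.

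Below 0, SAG29 stood at -0.81, where INA lowered it by both routes (-1.44 on top of BLM and -0.62 alone), and COR15A at -1.02 (-1.43 on top of BLM and -0.41 alone). AT5G57760 (-1.37), AT3G12900 (-1.22), AT1G03990 (-0.89) and AT5G38820 (-1.01) fell on top of BLM and stood at 0.13, 0.47, 0.34 and 0.57 with INA alone, where AT5G38820, an amino acid transporter family gene, was called higher. AT5G38820 lost its fall on top of BLM (-0.43) in 5 of 12 fits without 1 array. AT2G25510 (-1.37) and AT5G03350 (-1.11) rose in both settings, by less in the presence of BLM.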

How the results depend on the processing

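Main counts were 1321 probe sets called with INA on top of BLM, 87 interactions, 159 raised by BLM then lower, 248 raised then higher still, 79 lowered then higher, 50 lowered then lower still, and 204 shared with INA alone. In that order, unmoderated variances gave 831, 2, 99, 128, 45, 33 and 106, a threshold of 0.01 gave 694, 42, 66, 120, 24, 14 and 131, and 1-gene probe sets only, which are fewer by construction, gave 650, 38, 81, 114, 39, 26 and 84. A 2-fold minimum in every contrast gave 248, 63, 15, 37, 2, 1 and 71. Quantile normalization, which was run on the values already centred per probe set, left 45 interactions. The compared groups alone gave 49 lowered then higher and 29 lowered then lower still, and cannot give the interaction. Leaving out 1 array gave ranges of 875 to 1343, 59 to 124, 108 to 184, 161 to 266, 40 to 103, 24 to 46 and 137 to 201. Beyond 1.5 times were 875 in all, 40 lowered then higher and 26 lowered then lower still without BLM replicate 1, 161 raised then higher still and 24 lowered then lower still without BLM replicate 2, 27 lowered then lower still without BLM replicate 3, 52 and 32 in the lowered classes without BLM+INA replicate 1, and 49 lowered then higher without BLM+INA replicate 3. The shared count fell to 137 without INA replicate 1. The share of rises was 59.3% and became 70.3% at 0.01 and 88.3% at 2-fold, and lay between 57.7% and 61.2% after centring or quantile normalization. With the replicate number as a block, 1761 were called, with 170 interactions, 241 raised then lower and 129 lowered then higher; BLM+INA replicate 1 did not correlate best with its own number, although the dap spike-in's 3′ minus 5′ signal followed the number in all 4 groups for replicates 1 and 3. Of 137 named probe sets followed, 69 were called, and 62 of these in each of the 12 fits without 1 array. Quantile normalization reversed AT5G11410 (-0.64, against 0.17), AT4G22960 (-0.29, against 0.59) and AT2G18600 (-0.60, against 0.09); the cause was not tested. Without dim probe sets, after array centring, with array weights and with robust variances all 7 counts stayed within 1.5 times. With 3 arrays per group, a change that was not called is not shown to be absent.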

Other observations

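Of 11 gene families picked by symbol after their values were seen, and given without a test, some had called members in 1 direction. Members were matched by symbol only. Genes listed by locus, such as the glucosyltransferase gene AT4G14090 (-1.13, called lower), were left out. Over all probe sets 3.44% were called higher and 2.37% lower, and most members of each family named next were not called. Of 16 SWEET sugar transporter genes, SAG29 (-1.44), SWEET13 (-0.85) and SWEET17 (-0.35) were lower with INA on top of BLM and 0 were higher, and each had stood above CK with BLM alone (1.43, 0.73 and 0.40). The SWEET median was -0.12. SWEET13 stood at 0.17, 0.00 and -0.74 in BLM+INA seedlings against 0.76, 0.58 and 0.63 in BLM seedlings. Of 18 expansin genes, which loosen cell walls, EXPB3 (-0.76), EXPA16 (-0.59) and EXLA2 (-0.48) were lower and 0 were higher (median -0.13). Of 19 genes of the cytochrome P450 subfamily CYP71B, CYP71B36 (1.38), CYP71B23 (1.23) and CYP71B24 (1.0) were higher and 0 were lower (median 0.05). Of 8 glutamate receptor genes, GLR2.7 (1.44) and GLR1.4 (1.38) were higher, while the family median was 0.01. Of 6 WRKY genes, 2 were higher and 0 lower. Other families had calls in both directions: 4 higher and 2 lower of 48 UDP-glycosyltransferase genes, 3 and 1 of 29 serine carboxypeptidase-like genes, 1 and 1 of 9 plant U-box ligase genes, and 1 and 4 of 6 LEA and cold-regulated genes. The 9 XTH and 4 GH3 genes had 1 lower each.

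Other called genes with a symbol included the jasmonate synthesis gene OPCL1 (0.98), the chitinase gene CHI (0.62), the isocitrate lyase gene ICL (0.67), the immune co-chaperone gene SGT1A (0.76) and the calmodulin-like gene CML38 (0.63), all higher in BLM+INA than in BLM. Called lower, and likewise named after their values were seen, were the magnesium chelatase gene CHLI2 (-0.47), the Calvin cycle gene SBPASE (-0.33), the peroxidase gene TAPX (-0.36) and the photosystem assembly gene LPA19 (-0.43), while the photosynthesis list had 0 of 4 called. The DNA helicase gene RECQI1, outside the DNA damage list as measured, stood at -0.12, 0.17 and 0.02 in BLM+INA seedlings against 0.57, 0.45 and 0.28 in BLM seedlings, a fall of -0.41 after a BLM rise of 0.55.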
